A study of Trichoderma harzianum with 18 samples.

Results

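The gene xyr1 (locus tag M431DRAFT_1126, named Triha1_1126 in the deposited tables) of Trichoderma harzianum was followed as a single row, 1 of 14650 genes in the count and FPKM tables, through 18 RNA-seq libraries of mycelium. FPKM values are fragments scaled to gene length and to the mapped total of the library, so that levels of different genes can be set side by side per length. The wild type CBS 226.95 was compared with its deletion mutant Δxyr1-2, in which a hygromycin resistance cassette took the place of the xyr1 coding sequence. The mutant in these libraries was 1 purified clone, so that any second change in that clone cannot be told apart from the deletion here. A further independent deletion clone showed the same growth trends in the study but had no RNA-seq library. Pre-cultures of both strains grew for 36 h on D-fructose and were then moved for 18 h to 1% w/v microcrystalline cellulose, to 25 mM D-fructose or to medium without a carbon source, with 3 replicate cultures in each of the 6 groups. The methods describe 3 sets of replicate pre-cultures, each from its own spore plate, so the p-values below measure the spread between cultures.

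XYR1 is a transcription factor of the fungal zinc binuclear cluster type. In Trichoderma reesei, where it has been studied most, it is the main activator of cellulase and xylanase genes and also controls genes of pentose catabolism, while the carbon catabolite repressor CRE1 acts against it when easily used sugars are present. Cellobiohydrolases release cellobiose from the ends of cellulose chains, endo-β-1,4-glucanases cut within them, AA9 lytic polysaccharide monooxygenases (LPMOs) cleave crystalline cellulose by oxidation, and endo-xylanases cut the xylan backbone.

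On the Triha v1.0 assembly the gene spans positions 3812710 to 3815646 of its scaffold, 2937 bases, and a length of 2811 bases lay behind its FPKM values. Both the position and the span are those of RefSeq for this assembly, and the scaffold name and strand were not used here. The oligonucleotides with which the deletion was tested by PCR are shown because they mark what was removed and what was kept. The first pair (jc150 and jc151) amplifies part of the xyr1 coding sequence that the cassette replaced, and the other pair (jc212 and jc213) amplifies across the locus, and the products of both strains were then told apart by cutting them with a restriction enzyme. All 4 are written 5′ to 3′ in lower case.
jc150: aactacgctacacaagcccc
jc151: gcacaatggtctcacatgcc
jc212: ggagggtcgcggctctatcg
jc213: ttcccccgtcttccaaacgca

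Library totals ran from 16208381 to 21263103 reads assigned to genes. One wild-type cellulose library, replicate 3, stood apart from the other 2 in the expression of many genes, and values without it are given below where it changed a call or moved a level or a count by over 1.5 times. A gene was called changed when its adjusted p was under 0.05 in edgeR's quasi-likelihood test with Benjamini-Hochberg adjustment over all genes tested, the fold change was over 2 and the mean FPKM was over 1 in at least 1 of the groups compared. Fold changes were scaled by the trimmed mean of M values (TMM) unless said otherwise, since library composition differed between conditions.

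The xyr1 transcript was nearly gone from all 9 mutant libraries, as their labels state. On cellulose the 3 mutant libraries held 7, 11 and 4 reads on xyr1, against 3501, 7053 and 13130 in the wild type. On D-fructose the mutant held 0, 7 and 7 reads and the wild type 1272, 1802 and 1956. Without carbon the mutant held 4, 4 and 1 reads and the wild type 3676, 2765 and 3669. No mutant library came near any wild-type library. Together the mutant libraries gave 45 reads on xyr1 out of 164954148. Scaled to library size, the mutant level was 0.0812% of the wild-type level on cellulose (95% exact interval 0.0509 to 0.123), 0.277% on D-fructose (0.151 to 0.465) and 0.0981% without carbon (0.0448 to 0.186). These intervals cover counting error only. The 22, 14 and 9 mutant reads per group had Poisson intervals of 13.8 to 33.3, 7.65 to 23.5 and 4.12 to 17.1, which overlap. A difference between carbon sources within the mutant was not tested. The source of the residual reads was not tested.

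The loss of xyr1 passed the test on each carbon source. The log2 fold change of mutant against wild type was −10.91 on cellulose (SE 0.756, adjusted p = 0.000185), −8.25 on D-fructose (SE 0.624, adjusted p = 0.0142) and −9.93 without carbon (SE 0.188, adjusted p = 1.145e-07, all by edgeR). Each edgeR SE is the size of the log2 fold change over the square root of its F statistic. Without carbon, where the mutant held 9 reads, this SE is smaller than the exact counting interval (0.0448 to 0.186%) would give. On D-fructose xyr1 was the only gene called among 10908 tested (0.00917% of the genes were lower and 0.0% higher in the mutant, with 549 higher and 329 lower at an unadjusted p under 0.05, and 88 and 20 called by DESeq2). Its adjusted p there rose to between 0.0527 and 0.128 when wild-type replicate 1, 2 or 3 or mutant replicate 2 or 3 was left out, with the log2 fold change at −8.06 or below. Without carbon xyr1 had the largest decrease of the 15 genes called (0.132% lower and 0.0% higher, with 370 higher and 368 lower at an unadjusted p under 0.05, and 2 and 22 called by DESeq2). On cellulose 27 of the 2379 genes called lower in the mutant fell further than xyr1 itself (20.7% of the genes tested were called lower, 21.5% higher and 42.2% either way). Scaled by library size only, 1270 genes were called lower and 4208 higher in this comparison in place of 2379 and 2470, since that scaling moved the median of all genes by 0.68, and xyr1 stood at −10.9 relative to that median. Without wild-type cellulose replicate 3, 2642 genes were called lower and 3047 higher. On D-fructose the same scaling moved the median by −0.25 and xyr1 stood at −8.19 relative to it.

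In the wild type, xyr1 was highest on cellulose, intermediate without carbon and lowest on D-fructose. On cellulose the 3 libraries read 72.6, 145 and 273 FPKM (163 ± 101, SD, n = 3), with a mean of 109 FPKM without replicate 3. Without carbon they read 64.8, 59.6 and 61.4 FPKM (61.9 ± 2.62, SD, n = 3), and on D-fructose 25.7, 35.5 and 40.0 FPKM (33.7 ± 7.31, SD, n = 3). No value on one carbon source overlapped those on another, but the lowest cellulose library lay only a little above the highest library without carbon. Within a library, xyr1 was above 88.0%, 93.6% and 96.6% of all genes on cellulose, above 84.1%, 82.6% and 83.1% without carbon and above 73.2%, 77.7% and 80.7% on D-fructose. The activator gene was thus above most genes also where no cellulose was present, including on the sugar.

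**Figure D1:**
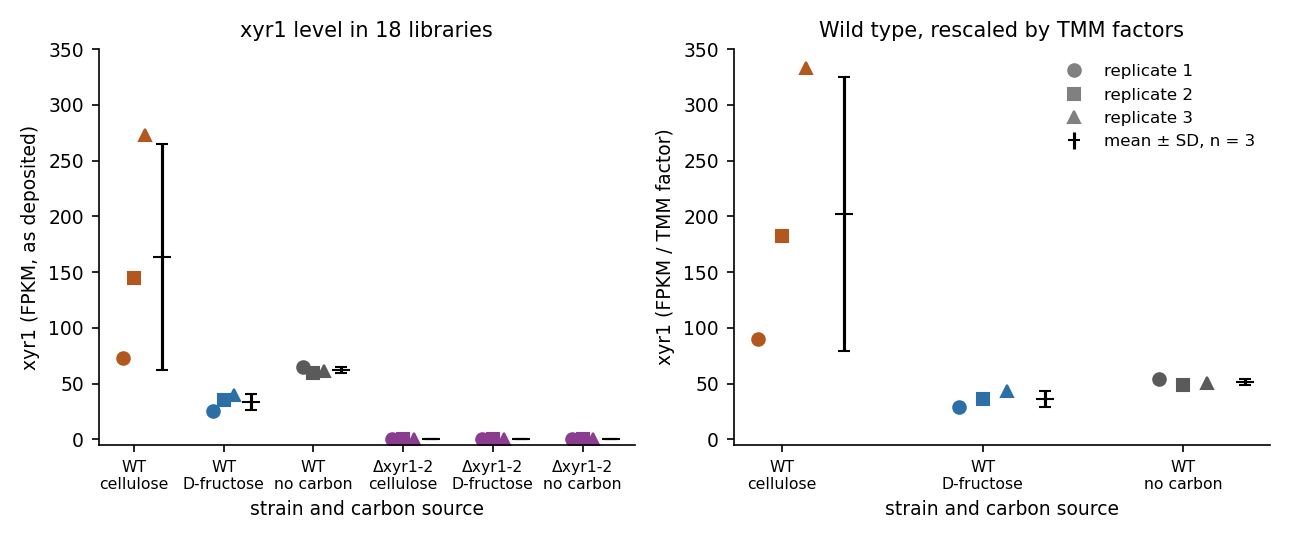
xyr1 in each library, as deposited FPKM for the 6 groups (left) and as FPKM divided by the TMM factor for the wild type (right), with marker shapes for replicates 1, 2 and 3 and black bars for the mean ± SD of 3 libraries. The wild-type cellulose libraries spread from 72.6 to 273 FPKM, those without carbon stay between 59.6 and 64.8, and all mutant libraries lie at 0.196 FPKM or below.

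Against D-fructose, xyr1 rose on cellulose by a log2 fold change of 2.42 (SE 0.477, edgeR adjusted p = 0.0264), or 5.37-fold. Of the genes tested, 2.77% were called higher on cellulose, 4.81% lower and 7.58% either way, and 187 of those 303 genes rose more than xyr1. The call was not firm in this pair of groups. Its adjusted p went to 0.0807 without wild-type cellulose replicate 2 and to 0.0897, 0.111 and 0.0805 without D-fructose replicate 1, 2 or 3, while without cellulose replicate 3 the adjusted p was 0.00838 at a log2 fold change of 1.90. Under all 13 alternatives the log2 fold change stood between 1.90 and 2.82. The alternatives that left out no library of this pair kept the call. Their adjusted p ran from 1.25e-05 (DESeq2) to 0.0342 (edgeR, scaled by library size only). The count of all genes called in this pair moved from 828 to 2868 without cellulose replicate 3, to 300 and 260 without cellulose replicates 1 and 2, to 396, 213 and 392 without D-fructose replicates 1, 2 and 3, and to 2003 with the replicate number as a block.

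Against the cultures without carbon, xyr1 rose on cellulose by a log2 fold change of 1.96 (SE 0.434, edgeR adjusted p = 0.00915), or 3.90-fold. That call was kept in each of the 13 alternatives run. Here 19.9% of the genes tested were called higher on cellulose and 1088 of these 2246 genes rose more than xyr1, so the change of xyr1 was near the middle of those called. Without cellulose replicate 3 the log2 fold change was 1.49. Scaled by library size only, 1335 genes were called higher and 4045 lower in place of 2246 and 2502.

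D-fructose and the absence of carbon could not be separated for xyr1 by the rule used. The log2 fold change of D-fructose against no carbon was −0.50 (SE 0.179, edgeR adjusted p = 0.0534), with 29.9% of the genes tested called in that comparison. Scaled by library size only, it was −0.88 with an adjusted p of 0.00627, still under 2-fold (1254 genes higher and 2795 lower in place of 1775 and 1648). Without D-fructose replicate 3 it was −0.64 (edgeR adjusted p = 0.00293), again under 2-fold. That scaling moved the median of all genes by −0.38 in this pair, by −0.59 for cellulose against no carbon and by −0.17 for cellulose against D-fructose. Relative to the median of all genes, xyr1 under it stood at −0.46, 2.05 and 2.46 in the same order.

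**Figure D2:**
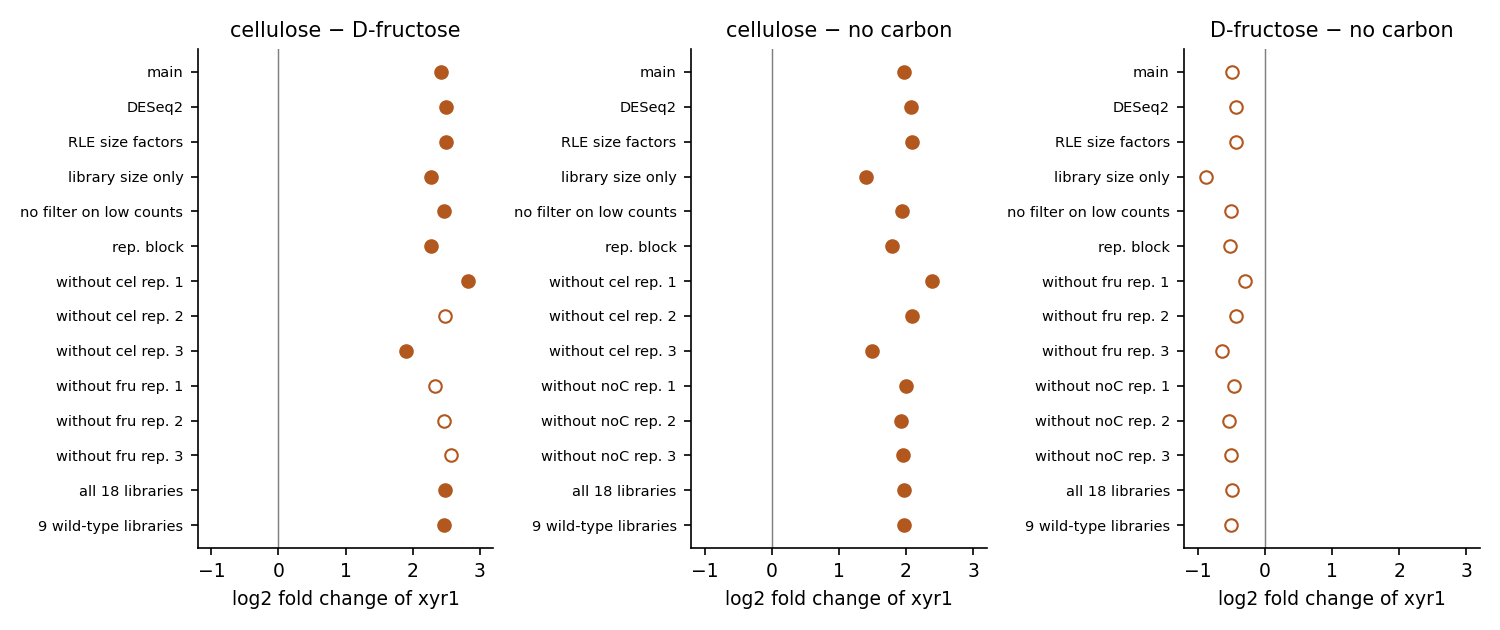
Log2 fold change of xyr1 between carbon sources in the wild type under each setting run, with filled circles where the adjusted p was under 0.05 and the fold over 2, and open circles otherwise. The difference between cellulose and no carbon stays filled throughout, that between cellulose and D-fructose is unfilled when cellulose replicate 2 or any D-fructose replicate is left out, and that between D-fructose and no carbon is unfilled in each setting.

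The replicates of xyr1 were spread unequally over the carbon sources. Without carbon its coefficient of variation was 4.22%, against a median of 8.34% over genes with a mean FPKM above 1. On D-fructose it was 21.7% (median 24.9%), and on cellulose it was 62.1% (median 28.2%), with 85.9% of 9892 expressed genes varying less. Without cellulose replicate 3 it was 46.9% there (median 12.6%). The cellulose cultures therefore gave the highest and the most uneven xyr1 levels.

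The summed level of the 19 cellulase genes (2 cellobiohydrolases, 14 endo-β-1,4-glucanases and 3 AA9 LPMOs) differed far more between cellulose and the other 2 carbon sources than xyr1 did. On cellulose the sum was 6914, 5542 and 26616 FPKM in replicates 1, 2 and 3. On D-fructose it was 443, 313 and 363 FPKM, and without carbon 244, 244 and 253 FPKM. Off cellulose almost all of the sum was endoglucanase transcript, 370 ± 65.9 of 373 ± 65.5 FPKM on D-fructose (SD, n = 3). In the mutant, which lacks xyr1, the sum was 675, 272 and 290 FPKM on D-fructose and 305, 254 and 262 FPKM without carbon. The ratios to xyr1 off cellulose therefore set 2 levels side by side and are no measure of transcript that needs xyr1. Between D-fructose and no carbon the mean FPKM of the sum and of xyr1 lay in opposite order, although the difference of xyr1 was not called. The ratio of the sum to xyr1 in the same library, which no library scaling can change, was 95.2, 38.3 and 97.5 on cellulose (77.0 ± 33.5), 17.2, 8.81 and 9.09 on D-fructose (11.7 ± 4.78) and 3.77, 4.10 and 4.13 without carbon (4.00 ± 0.199). The ratios of the carbon sources did not overlap. On the log2 scale the ratio was 2.67 higher on cellulose than on D-fructose (SE 0.544) and 4.15 higher than without carbon (SE 0.446). It was 1.48 higher on D-fructose than without carbon (SE 0.318). Without cellulose replicate 3 the first 2 of these were 2.44 and 3.92. Each of these gave p = 0.1 in a 2-sided exact permutation test (n = 3 per group), the smallest p that 3 against 3 allows, so none can pass 0.05.

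The order of cellulose and D-fructose and that of D-fructose and no carbon depended on which enzymes were summed. For the 14 endoglucanases alone, taken after the data were seen, the ratio to xyr1 was 11.1, 4.41 and 10.7 on cellulose (8.71 ± 3.73, SD, n = 3) and 17.1, 8.73 and 8.96 on D-fructose (11.6 ± 4.79, SD, n = 3), so that these groups overlapped. Their log2 ratio was −0.46 for cellulose against D-fructose (SE 0.538, exact permutation p = 0.6, n = 3), opposite in sign to that of all 19 cellulases. Without carbon it was 3.70, 4.04 and 3.92, below both other groups. For the cellobiohydrolases CEL7A (Triha1_7497) and CEL6 (Triha1_508689), summed FPKM was 4320, 3263 and 20321 on cellulose, 2.12, 1.87 and 4.15 on D-fructose and 1.93, 1.67 and 9.04 without carbon. Their log2 ratio to xyr1 was 9.24 and 9.87 higher on cellulose than on D-fructose and without carbon, and D-fructose and no carbon differed by 0.62 (SE 0.834, exact permutation p = 0.5, n = 3). For the 9 endo-xylanases the sum was 2831, 2582 and 7432 FPKM on cellulose, 0.82, 1.27 and 2.80 on D-fructose and 6.69, 7.88 and 8.98 without carbon. Their log2 ratio to xyr1 was lower by 1.55 on D-fructose than without carbon (SE 0.384, exact permutation p = 0.1, n = 3), the reverse of the direction for the cellulases. With xyr1 at 25.7 to 64.8 FPKM in the cultures off cellulose, the cellobiohydrolase sum was thus at most 9.04 FPKM and the endo-xylanase sum at most 8.98 FPKM.

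**Figure D3:**
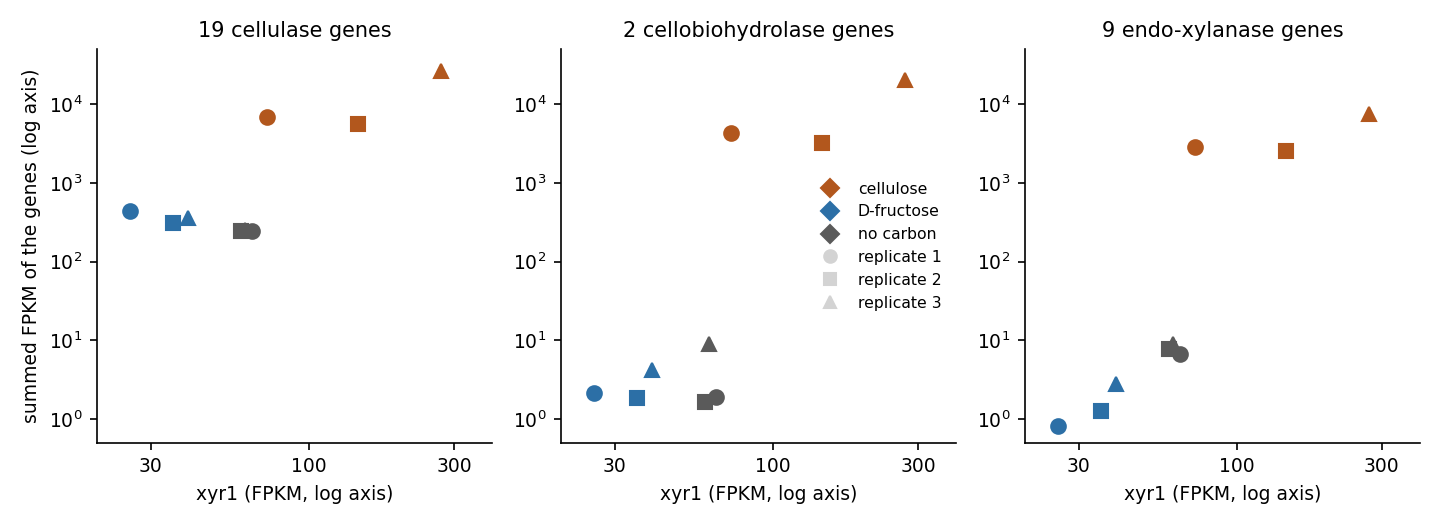
FPKM of xyr1 against the summed FPKM of 3 enzyme groups in each wild-type library, on log axes, with colours for the carbon source and shapes for the replicate. The cellulose libraries sit far above the others on the vertical axis (5542 to 26616 against 244 to 443 FPKM for the cellulases), while on the horizontal axis cellulose replicate 1 (72.6 FPKM) lies next to the libraries without carbon.

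Among the cellulose replicates, the enzyme genes did not follow xyr1 step for step. The xyr1 level of replicate 2 was 1.99 times that of replicate 1, but the cellulase sum was 0.802 times, the cellobiohydrolase sum 0.755 times and the endo-xylanase sum 0.912 times as high. Replicate 3 was above replicate 1 for xyr1 (3.76 times), the cellulases (3.85 times), the cellobiohydrolases (4.70 times) and the endo-xylanases (2.63 times). Of the 15 cellulase genes with a mean above 1 FPKM on cellulose, 13 were highest in replicate 3, 2 were higher in replicate 2 than in replicate 1, and 1 had the order of xyr1 (3 above 2 above 1). That order was shared by 1 of 8 endo-xylanases, 0 of 14 other xylan-active enzymes, 1 of 6 pentose pathway genes, 21 of 50 sugar transporters (42.0%) and 2468 of all 9892 genes (24.9%). Of the same 9892 genes, 4645 were highest in replicate 3 and 4996 were higher in replicate 2 than in replicate 1. With 3 cultures this is a description, and no correlation was computed over libraries that fall into 3 groups.

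Some genes went opposite to xyr1 in replicate 3. The GH11 xylanase Triha1_115099 read 1096, 1132 and 108 FPKM in replicates 1, 2 and 3, and the sugar transporters Triha1_79806 (1397, 1622 and 398 FPKM) and Triha1_493995 (960, 1228 and 331 FPKM) were also lowest there. The transporter Triha1_502689 was highest there (2054, 2338 and 3912 FPKM). The D-xylose reductase gene xyl1 (Triha1_83947), the first step of D-xylose use, read 1093, 1222 and 764 FPKM. The cause of these differences was not tested.

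**Figure D4:**
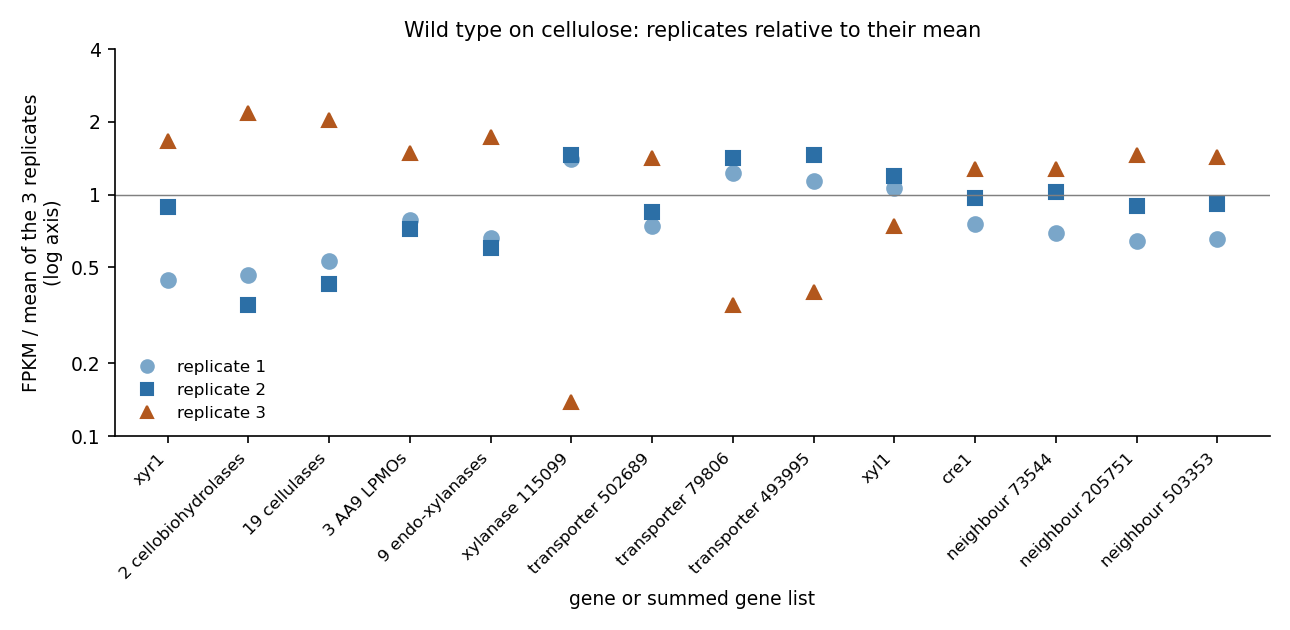
FPKM of single genes and of summed enzyme genes in the 3 wild-type cellulose replicates, each divided by its mean over the 3 and drawn on a log axis. Replicate 3 (triangles) is highest for xyr1, the enzyme sums, cre1 and the neighbouring genes Triha1_73544, Triha1_205751 and Triha1_503353, and lowest for xylanase Triha1_115099, 2 transporters and xyl1.

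On cellulose, most genes of the enzymes the factor is known for were lower in the mutant. CEL7A read 2002, 1602 and 12216 FPKM in the wild type and 0.653, 8.99 and 0.595 FPKM in the mutant (log2 fold change −11.28, SE 1.90, adjusted p = 0.00353) and CEL6 read 2317, 1661 and 8105 FPKM against 0.773, 5.79 and 0.928 FPKM (−11.34, SE 1.42, adjusted p = 0.00124). No mutant library came near a wild-type one, and for both genes replicate 2 was the highest mutant library. Without wild-type replicate 3 the wild-type means of CEL7A and CEL6 were 1802 and 1989 FPKM in place of 5274 and 4028. The AA9 LPMOs Triha1_99387 and Triha1_488374 fell from 1198 ± 646 and 1074 ± 321 to 1.55 ± 0.535 and 0.764 ± 0.969 FPKM. The remaining one, Triha1_131108, was at 0.388 ± 0.0250 FPKM in the wild type and was not tested there. The endoglucanases Triha1_89222, Triha1_441083 and Triha1_512303 (CEL7B) fell from means of 301, 278 and 256 FPKM to below 1 FPKM. In wild-type replicates 1, 2 and 3 they read 102, 91.7 and 709 FPKM (Triha1_89222), 120, 98.1 and 616 FPKM (Triha1_441083) and 150, 93.1 and 525 FPKM (Triha1_512303), so that their means without replicate 3 were 96.7, 109 and 122 FPKM. In all, 11 of the 19 cellulase genes were called lower and 1 higher in the mutant on cellulose, with 4 not tested. Among all genes tested, 20.7% were called lower and 21.5% higher. Over all 19, the median log2 ratio of mean FPKM + 1 was −2.16, against 0.319 over all 14650 genes.

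All 8 of the 9 endo-xylanase genes that could be tested were called lower in the mutant on cellulose. GH10 xylanase Triha1_91773 fell from 953 ± 716 to 0.363 ± 0.491 FPKM, GH11 xylanase Triha1_115099 from 779 ± 581 to 0.170 ± 0.101 FPKM and Triha1_127746 from 2059 ± 2189 to 1.15 ± 1.91 FPKM. The mutant mean of Triha1_127746 was carried by replicate 2 (2, 77 and 0 reads), and without that library its log2 fold change was −15.8 in place of −11.49, with a mutant mean of 0.0452 FPKM. Mutant replicate 2 was also the highest mutant library for Triha1_91773 (2, 18 and 1 reads), the LPMO Triha1_488374 (4, 28 and 2 reads) and Triha1_94998 (0, 16 and 1 reads), whose calls were all kept without it. Wild-type replicate 3 decided much of these levels, and without it Triha1_91773 averaged 540 FPKM and Triha1_127746 796 FPKM in the wild type. The median log2 ratio of mean FPKM + 1 over all 9 was −6.25. Of 17 other xylan-active enzymes, 8 were lower and 2 higher, with a median of −0.501, beside 20.7% of all genes tested called lower, 21.5% called higher and the median of 0.319 over all genes. Without wild-type replicate 3, 3 of them and 2 cellulases were higher. Triha1_94998 (CE5) fell from 404 ± 181 to 0.316 ± 0.499 FPKM and the CE1 esterase Triha1_102504 from 109 ± 105 FPKM (48.7 without wild-type replicate 3) to 1.92 ± 0.281 FPKM. Triha1_81377 (CE5) read 99.4 ± 27.4 FPKM in the wild type and 93.7 ± 15.9 FPKM in the mutant (edgeR adjusted p = 0.0261, under 2-fold) and was not called.

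The wild-type cellulose libraries also enter the comparisons between carbon sources, whose counts are set beside these for that reason without a test of overlap. Against D-fructose, 9 of 19 cellulases, 7 of 9 endo-xylanases and 8 of 17 other xylan-active enzymes were called higher, and 0, 0 and 1 lower, beside 2.77% of all genes tested called higher and 4.81% lower. The median log2 ratios over all members were 1.54, 6.45 and 0.332, against −0.0619 over all genes. Against no carbon, 11 cellulases, 8 endo-xylanases and 8 other xylan-active enzymes were called higher, and 1, 0 and 3 lower, beside 19.9% of all genes tested called higher and 22.1% lower. The medians over all members were 2.22, 6.27 and 0.197 there, against −0.29 over all genes. Without cellulose replicate 3, 3 other xylan-active enzymes were lower than on D-fructose, and 2 cellulases were lower than without carbon. Without D-fructose replicate 2 the calls against D-fructose of Triha1_89222 and Triha1_102504 were lost (edgeR adjusted p = 0.0532 and 0.0585).

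The pentose pathway genes differed among themselves, with 4 of 6 called lower and 1 higher in the mutant on cellulose. Among all genes tested, 20.7% were called lower there and 21.5% higher. The transcript of xyl1 rose on cellulose from 61.9 ± 14.1 FPKM on D-fructose to 1026 ± 236 FPKM (log2 fold change 4.24, SE 0.384, adjusted p = 0.00177). It fell to 119 ± 8.03 FPKM in the mutant (−3.79, SE 0.300, adjusted p = 0.000287). The D-xylulose kinase gene xki1 (Triha1_499653) went from 47.4 ± 7.13 to 9.27 ± 1.05 FPKM (−3.04, SE 0.196, adjusted p = 0.000148). The L-xylulose reductase genes lxr3 (Triha1_479566) and lxr4 (Triha1_83091) were also called lower in the mutant, at log2 fold changes of −1.35 and −1.48. Both calls were lost when libraries were scaled by size only, at −0.67 and −0.80. The L-arabitol dehydrogenase gene lad1 (Triha1_495252) was higher in the mutant, 52.3 ± 2.07 against 13.1 ± 1.83 FPKM (1.32, SE 0.171, adjusted p = 0.00137). For the xylitol dehydrogenase gene xdh1 (Triha1_508280), levels were 84.6 ± 9.73 and 46.5 ± 17.3 FPKM and the log2 fold change was 0.17 (SE 0.287, edgeR adjusted p = 0.632). Without carbon, lad1 read 40.8 ± 1.83 FPKM in the wild type and 37.5 ± 2.49 FPKM in the mutant. There xdh1 read 95.4 ± 11.2 and 66.7 ± 25.4 FPKM. What raised lad1 in the mutant on cellulose was not tested. In the wild type, xyl1, xki1, lxr4 and xdh1 were called higher on cellulose than on D-fructose, beside 2.77% of all genes tested. Of these, xki1 lost its call without cellulose replicate 2 or D-fructose replicate 2, lxr4 without cellulose replicate 1 or 2 or D-fructose replicate 2, and xdh1 without any of 5 single libraries, so that 1 gene was left without cellulose replicate 2 or D-fructose replicate 2 and 2 without cellulose replicate 1. With the replicate number as a block, lad1 was called as well (log2 fold change 1.06, adjusted p = 0.0356).

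Of 90 genes annotated as sugar transporters (PF00083), 13 were called lower and 28 higher in the mutant on cellulose, and the median log2 ratio over all 90 was 0.727, beside 20.7% lower and 21.5% higher among all genes tested and a median of 0.319 over all genes. Scaled by library size only, 11 were lower and 41 higher, and without wild-type cellulose replicate 3, 13 were lower and 39 higher. In the wild type 9 were called higher and 4 lower on cellulose than on D-fructose, beside 2.77% higher and 4.81% lower among all genes tested. Without D-fructose replicate 2, 5 were called higher. Without cellulose replicate 3, 11 were called higher and 23 lower, with 1140 and 1728 of all genes. Triha1_502689, the most abundant on cellulose, fell from 2768 ± 1000.45 to 58.0 ± 21.4 FPKM in the mutant (−6.24, SE 0.567, adjusted p = 0.000424). Triha1_79806 fell from 1139 ± 652 to 5.46 ± 0.942 FPKM (−8.39, SE 0.741, adjusted p = 0.000386), but its rise over D-fructose in the wild type lost its call without cellulose replicate 1 or 2 or D-fructose replicate 2 or 3 (edgeR adjusted p from 0.0758 to 0.0990). Triha1_493995 went from 840 ± 461 to 353 ± 157 FPKM (−1.93, SE 0.591, adjusted p = 0.0308). That call was lost without wild-type replicate 1 or 2, without mutant replicate 2 or 3, and with scaling by library size only, with edgeR adjusted p from 0.0774 to 0.114.

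The repressor gene cre1 (Triha1_502975) was highest on D-fructose by mean level, where xyr1 was lowest. Wild-type cultures read 193, 249 and 327 FPKM on cellulose. With D-fructose they read 397, 494 and 369 FPKM, and without carbon 138 to 154 FPKM. Cellulose and D-fructose could not be separated for cre1 by the rule used (log2 fold change −0.55, SE 0.306, edgeR adjusted p = 0.276). Its log2 fold change was 1.89 for D-fructose against no carbon (SE 0.177, adjusted p = 0.000215) and 1.38 for cellulose against no carbon (SE 0.212, adjusted p = 0.00225). On cellulose it was lower in the mutant, 158 ± 27.6 against 256 ± 67.3 FPKM (−1.37, SE 0.275, adjusted p = 0.00679), a call lost under scaling by library size only (−0.70, edgeR adjusted p = 0.0549). The call for cellulose against no carbon was lost under that scaling as well (0.80, edgeR adjusted p = 0.0201, under 2-fold), while that for D-fructose against no carbon was kept (1.52).

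Without carbon, where wild-type xyr1 stood at 61.9 FPKM, a few of the listed genes also changed with the deletion. Of the 141 genes on the cellulase, xylan, pentose and transporter lists, 5 were among the 15 called, all lower, and they are named here because they were called. Those 15 are 0.132% of the 11387 genes tested. Tested in this comparison were 11 cellulases, 3 endo-xylanases, 10 other xylan-active enzymes, 6 pentose pathway genes and 75 transporters. The sugar transporter Triha1_99293 had 2267, 1366 and 2206 reads in the wild type and 51, 56 and 35 in the mutant (58.6 ± 8.92 against 1.58 ± 0.320 FPKM, log2 fold change −5.19, SE 0.186, adjusted p = 1.059e-05), and it was called under each of 12 alternatives. On cellulose its level was 794 ± 181 FPKM in the wild type and 2.13 ± 0.458 FPKM in the mutant. GH11 xylanase Triha1_525076 had 31, 26 and 23 reads in the wild type and 0 in each mutant library, at least 24.2-fold lower with a floor of 3 reads over the group (adjusted p = 0.0438). GH11 xylanase Triha1_115099 had 50, 35 and 29 reads against 1, 4 and 2 (−3.83, SE 0.474, adjusted p = 0.0306). The CE1 esterase Triha1_102504 had 96, 63 and 93 reads against 13, 26 and 12 (−2.16, SE 0.270, adjusted p = 0.0306), and the α-glucuronidase Triha1_509810 215, 121 and 198 reads against 35, 46 and 30 (−2.10, SE 0.208, adjusted p = 0.0103). No mutant library overlapped a wild-type one for any of the 5, but they were picked by the test on these libraries, so this is no separate support. The last 4 calls were weak, holding with 1, 0, 0 and 2 of 6 single libraries left out (in the order named), with adjusted p up to 0.274. None of the 11 cellulases tested, out of 19, was called without carbon.

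The genes beside xyr1 on the scaffold also differed between conditions. Triha1_73544, whose end lies 3397 bases before the start of xyr1, read 123, 182 and 226 FPKM on cellulose, 16.9, 14.3 and 17.9 on D-fructose and 13.0, 11.7 and 14.1 without carbon in the wild type. Triha1_205751, at 8029 bases, read 52.9, 74.2 and 120 FPKM on cellulose, 3.0, 3.3 and 5.0 on D-fructose and 12.6, 12.2 and 12.7 without carbon. Both were far higher on cellulose with no overlap. On cellulose both had their replicates in the order of xyr1, an order shared by 24.9% of all 9892 genes with a mean above 1 FPKM there. Their log2 fold changes against D-fructose were 3.59 (SE 0.299, adjusted p = 0.00144) and 4.60 (SE 0.400, adjusted p = 0.00159), and against no carbon 4.35 and 3.29. In the mutant on cellulose they fell by 3.93 (SE 0.319, adjusted p = 0.000309) and 3.74 (SE 0.346, adjusted p = 0.000451) on the log2 scale, to 18.4 ± 4.32 and 9.84 ± 2.25 FPKM. On D-fructose and without carbon, the mutant's log2 fold changes were 1.14 and 0.03 for Triha1_73544 and −0.47 and −0.31 for Triha1_205751, none of them called. The value of 1.14 rested on mutant replicate 1, since the mutant read 56.1, 11.7 and 14.4 FPKM on D-fructose and without that library the log2 fold change was −0.18. Among all genes tested, 2.77% were called higher on cellulose than on D-fructose and 19.9% higher than without carbon. In the mutant on cellulose 20.7% were called lower.

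A further gene, Triha1_503353, was singled out after its values were seen, since it lies outside the 2 genes on either side that were set for description. It read 54.3, 75.5 and 118 FPKM on cellulose and 4.4 to 11.2 FPKM in the other wild-type libraries, and fell by 3.40 (SE 0.315, adjusted p = 0.000456) on the log2 scale in the mutant on cellulose. It overlaps Triha1_205751 by 128 bases, and the strand setting of the counting was not given in the sources used here, so reads in the overlap could belong to either. On the other side of xyr1, Triha1_105416 (1853 bases away) had 0 to 18 reads per library and was not tested. Triha1_1128 (3321 bases away) stood at 26.9 ± 12.2 FPKM with cellulose and at 73.8 ± 37.7 FPKM with D-fructose in the wild type and was called in none of the comparisons, though it was called under 4 alternatives between the strains on cellulose (higher in the mutant), 2 against D-fructose and 2 against no carbon. Farther out, Triha1_132637 (15640 bases before xyr1) and Triha1_71506 and Triha1_477582 (5862 and 15065 bases after it) were called higher on cellulose than without carbon, by 1.59, 1.04 and 1.26 on the log2 scale (edgeR adjusted p = 0.0277, 0.0458 and 0.0201). They were called lower in the mutant on cellulose, at −1.82, −1.32 and −1.60 (edgeR adjusted p = 0.0170, 0.0220 and 0.0101), and were called neither against D-fructose nor in the mutant on the other carbon sources. The sources used here gave no function for these genes. Among all genes tested, 19.9% were called higher on cellulose than without carbon and 20.7% lower in the mutant on cellulose.

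**Figure D5:**
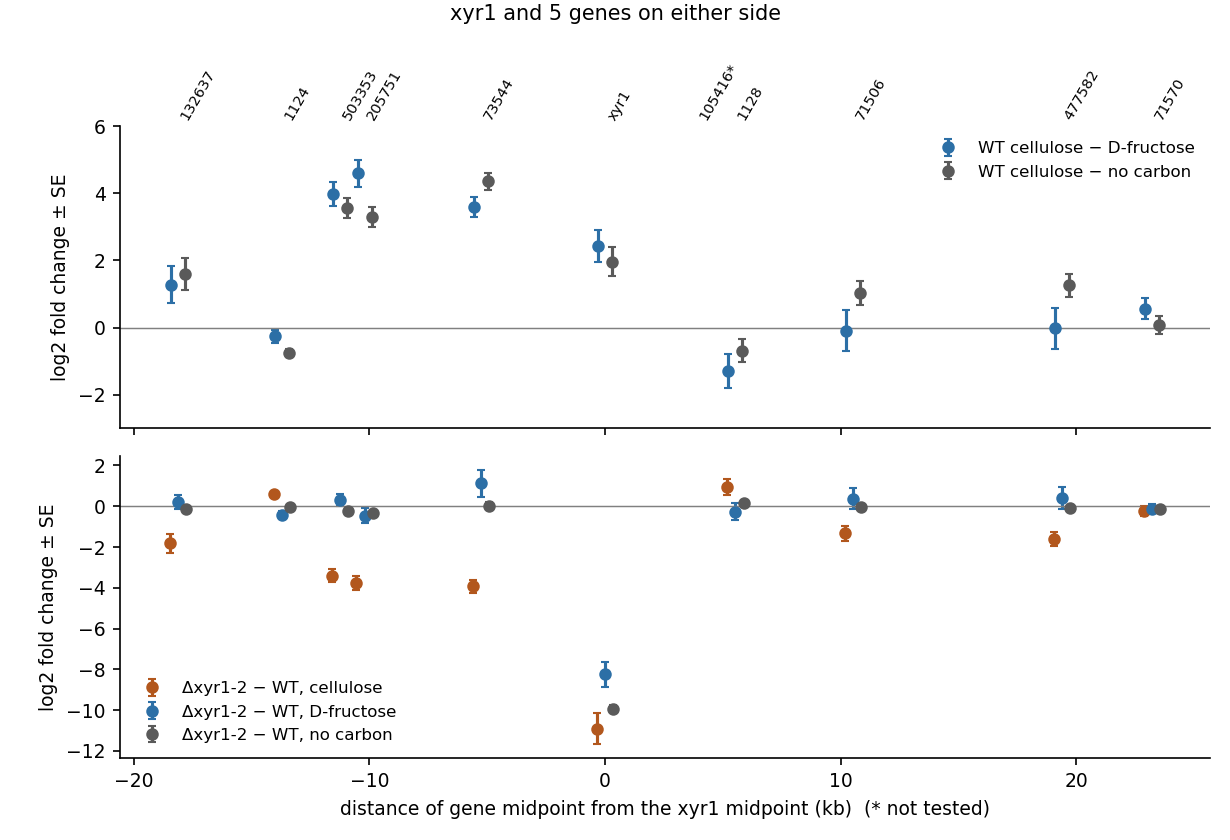
Log2 fold change ± SE of xyr1 and the 5 genes on either side, by distance in kb between gene midpoints, for carbon sources in the wild type (top) and for mutant against wild type on each carbon source (bottom). Triha1_73544, Triha1_205751 and Triha1_503353 are raised on cellulose and lower in the mutant on cellulose only by the calls made. Triha1_132637, Triha1_71506 and Triha1_477582 have smaller called differences against no carbon and in the mutant on cellulose, and xyr1 is lower in the mutant on all 3 carbon sources. SE is the size of the log2 fold change over the square root of its F statistic. Among all genes tested, 19.9% were called higher on cellulose than without carbon and 20.7% lower in the mutant on cellulose.

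The genes whose pattern over the 9 wild-type libraries was most like that of xyr1 were found by the root mean square difference of log2(FPKM + 1), each gene centred on its own mean, among 11357 genes. The closest were Triha1_481091 (0.328), Triha1_506439 (0.382), Triha1_140772 (0.401), Triha1_338986 (0.435) and Triha1_510242 (0.448), against a median of 1.18 and a 1st percentile of 0.694. Triha1_481091 read 10.1 ± 4.10 FPKM on cellulose, 2.89 ± 0.633 on D-fructose and 4.46 ± 0.332 without carbon. Triha1_140772 read 141 ± 49.5, 23.2 ± 8.62 and 41.4 ± 1.39 FPKM in the same order. Only Triha1_481091 stayed among the 5 closest in each of 6 alternatives. Triha1_510242 stayed in 1 and was listed at 0 on D-fructose and without carbon. Triha1_506439 stayed in 3 and was also near the floor, at 0.146 ± 0.0989 FPKM on D-fructose and 0.245 ± 0.0838 FPKM without carbon. It ranked 115 with a pseudocount of 0.1 and 1324 with TMM-normalized log2 CPM. CEL7A, with its much larger swing, ranked 11346 by this measure (4.29), lxr4 ranked 31 (0.555) and cre1 7193 (1.28).

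In the mutant on cellulose, where this choice used no library of the mutant, Triha1_481091 fell to 4.29 ± 0.379 FPKM (log2 fold change −1.90, SE 0.338, adjusted p = 0.00427) and Triha1_140772 to 51.8 ± 1.20 FPKM (−2.12, SE 0.263, adjusted p = 0.00121). The wild-type cellulose libraries of this comparison were those that chose the genes, and 20.7% of all genes were called lower there.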

How the data were processed

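Poly-A RNA of mycelium was sequenced as paired-end reads by the authors, who removed adapter and low-quality reads, aligned with STAR 2.5.2b to the Triha v1.0 assembly keeping reads with at most 1 mismatch, and counted reads per gene with HTSeq 0.5.4. The deposited counts are whole reads per gene, and the deposited FPKM values were computed by the authors from those counts and gene lengths. Strand setting was not given in the sources used here. Of the 14650 genes, 14290 are RefSeq genes and 360 carry names given by the authors.

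Counts were tested with edgeR 4.0.16 (R 4.3.3, quasi-likelihood F-test, TMM, filterByExpr) on the 6 libraries of each pair of groups, with Benjamini-Hochberg adjustment. The SE of an edgeR log2 fold change was its size divided by the square root of its F statistic. It can be smaller than counting error where a group holds few reads. The fold, FPKM and adjusted p criteria (over 2, over 1, under 0.05) were those of the study, which used DESeq2. DESeq2 1.42.0, other scalings, filters, sample sets, a replicate block and single libraries left out were alternatives. Ratios used a 2-sided exact permutation test (scipy 1.17.1). The fits were tested on simulated data. List medians were taken over all members as log2 of mean FPKM with a pseudocount of 1.

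Within the wild type, same-numbered cellulose and D-fructose libraries deviated together from their group means (r = 0.39, 0.178 and 0.381 over 12058 genes), which is why the replicate block is given for that pair. The methods describe replicate sets of pre-cultures, each split over the carbon sources, but the sources used here do not tie the library numbers to those sets. In the other pairs not every number deviated together.

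Named were xyr1, the 2 cellobiohydrolases, the 3 members of each other list with the highest mean FPKM on cellulose, cre1, the 6 pentose pathway genes, the 2 genes on either side of xyr1 and the 5 closest in pattern. The genes called without carbon, Triha1_503353 and the other genes named beyond the 2 on either side of xyr1 were added after their values were seen. Lists came from the annotation columns of the study's gene table. Members and lists were chosen with earlier results of these data known. The promoter, protein and zinc cluster gene comparisons were not analysed here.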

Additional observations from a re-analysis of the deposited data

Results flagged for a closer look

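The difference between mutant and wild type on cellulose was set against that on D-fructose or without carbon in an edgeR interaction fit over 12 libraries, chosen after seeing the data. For xyr1 the log2 difference was −2.62 against D-fructose (SE 0.953, adjusted p = 0.0420) and −1.002 against no carbon (SE 0.989, edgeR adjusted p = 0.412). Since the mutant held 22, 14 and 9 reads per group, the value against D-fructose largely restates the wild-type difference between cellulose and D-fructose (2.42) and is no separate result. For Triha1_73544 it was −5.07 against D-fructose (SE 0.860, adjusted p = 0.00115), a value that rested in part on mutant D-fructose replicate 1 and was −3.72 without it (SE 0.411, adjusted p = 0.000213, 11 libraries), and −3.98 against no carbon (SE 0.358, adjusted p = 9.621e-06). Triha1_205751 gave −3.26 and −3.44 (adjusted p = 0.000576 and 2.524e-05), and Triha1_503353 gave −3.66 and −3.19 (adjusted p = 0.000132 and 5.859e-05). Of the genes called without carbon, Triha1_102504 gave −4.34, Triha1_115099 −9.00, Triha1_509810 −4.79 and Triha1_99293 −4.04 for cellulose against no carbon (adjusted p = 0.00156, 0.00838, 0.000378 and 5.501e-06). For Triha1_525076 the adjusted p was 0.881. In the wild type, cellulose against no carbon gave 9.37 for Triha1_115099 and 5.26 for Triha1_102504. It gave 4.35 for Triha1_73544, 3.29 for Triha1_205751 and 3.57 for Triha1_503353. The interaction values against no carbon for these genes largely restate those differences and are no separate results. The genes called without carbon were also picked from these same libraries.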

How the results depend on the processing

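The log2 fold change of xyr1 kept its direction in all 6 comparisons under each alternative run. With single libraries left out it ranged from 1.90 to 2.82 (cellulose against D-fructose), 1.49 to 2.39 (cellulose against no carbon), −0.64 to −0.30 (D-fructose against no carbon) and, for mutant against wild type, −11.26 to −10.37 on cellulose, −8.66 to −7.78 on D-fructose and −10.24 to −9.56 without carbon. With the replicate block, xyr1 stood at 2.27 for cellulose against D-fructose (adjusted p = 0.00734), and no call of xyr1 changed in any pair. The block gave 10 cellulases, 8 endo-xylanases, 5 pentose genes and 11 transporters called higher on cellulose than on D-fructose in place of 9, 7, 4 and 9. The numbers of genes called were less stable. For cellulose against D-fructose the 828 genes became 1661 with DESeq2, 2003 with the replicate block, 2293 with all 18 libraries in 1 fit, 1662 with the 9 wild-type libraries and 213 to 2868 with 1 library left out. For the mutant on D-fructose, 1 gene became 108 with DESeq2, 113 with 18 libraries and 0 to 1 with 1 left out. Without carbon, 15 became 24 with DESeq2, 7 with the replicate block, 3 with 18 libraries and 3 to 12 with 1 left out. With 1 library left out, 1 to 4 pentose genes and 5 to 11 transporters were called higher on cellulose than on D-fructose, and scaling by library size only left 2 of the 4 pentose genes lower in the mutant. In place of the 19 cellulases, the log2 ratio to xyr1 was 9.24 (cellobiohydrolases) or 9.27 (endo-xylanases) for cellulose against D-fructose. For cellulose against no carbon it was 9.87, 7.73 or 2.62 (mean of log2 values). For D-fructose against no carbon it was 0.62, −1.55 or 0.60, so the direction turned for the endo-xylanases. For the endoglucanases alone, chosen after seeing the data, it was −0.46 for cellulose against D-fructose, a turned direction, and 1.05 for cellulose against no carbon. Rescaled by TMM factors, xyr1 without carbon averaged 51.3 FPKM. Of the 5 genes closest in pattern, 2 stayed with a pseudocount of 0.1, 3 with TMM-normalized CPM and 1 to 4 with 1 cellulose library left out. For the other named genes, 930 of 975 values kept their call, 33 lost it, 12 gained it and 0 reversed. The cause was not tested. The promoter motif alternative was not run. Mutant groups held 9 to 22 xyr1 reads, and carbon sources were not compared within the mutant.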
